A study of Mus musculus with 8 samples.

Results

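The UDP-glucuronosyltransferases and the glutathione transferases, the main conjugating enzymes of phase II metabolism, were examined in the liver and the epididymal fat (epididymal white adipose tissue, eWAT) of mice labelled Crtc1-/- and Crtc1+/+. Members were all genes whose symbol begins with Ugt1, Ugt2 or Ugt3, or with Gst and a class letter a, k, m, o, p, t or z followed by a digit. This gave 41 of the 19348 genes of the count table, 19 Ugt and 22 Gst genes. RNA-seq was performed on 8 libraries, 2 for each labelled genotype in each tissue, from male C57BL/6 mice aged 12 weeks that had been kept on a normal diet and were killed after 16 h without food. The Crtc1-/- animals carry a whole-body CRISPR/Cas9 deletion aimed at exons 2 to 4 of Crtc1, a coactivator of the cAMP response factor CREB, and the Crtc1+/+ animals were their wild-type littermates from crosses of heterozygotes. The study describes the 2 libraries of a group as independent biological replicates, and the libraries are called KO-labelled and WT-labelled here after their labels. By its methods both tissues were taken from 2 mice of each genotype, but the labels do not tie liver and eWAT with the same replicate number to 1 mouse, so the fits of all 8 libraries treat the tissues as independent.

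UDP-glucuronosyltransferases sit in the endoplasmic reticulum and join glucuronic acid from UDP-glucuronic acid to bilirubin, steroids, bile acids and drugs, which makes them soluble enough to be excreted in bile or urine. The Ugt1a enzymes come from 1 locus with alternative first exons, the Ugt2a and Ugt2b enzymes from a gene cluster, and the Ugt3a enzymes use other UDP sugars. The cytosolic glutathione transferases join glutathione to electrophiles such as lipid peroxidation products, and are grouped into the alpha (Gsta), mu (Gstm), omega (Gsto), pi (Gstp), theta (Gstt) and zeta (Gstz) classes, while kappa (Gstk) is found in mitochondria and peroxisomes. Liver is the main site of both families, and many of the genes are targets of the oxidative stress factor NRF2 and of the xenobiotic receptors.

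The libraries held 16560085 to 19721481 counts. Levels per length are given as the FPKM deposited by the authors, and CPM, counts brought to a common library size with factors from the trimmed mean of M-values (TMM) within a tissue, are used for comparisons of 1 gene between libraries. Crtc1 did not check the labels, because counts per gene include the exons outside the deletion: it stood at 58.5 and 33.6 CPM in KO-labelled eWAT against 32.6 and 33.7 CPM in WT-labelled eWAT, and at 22.1 and 18.0 CPM against 11.7 and 9.86 CPM in liver. The liver libraries held 17.8% to 21.3% of their counts in 9 hepatocyte markers. Those markers also took 9.31% of the KO-labelled eWAT replicate 2, against 0.0692% to 0.577% in the other 3 eWAT libraries. The 10 epididymis markers took 7.33% and 8.56% of the WT-labelled eWAT libraries but 0.00342% and 0.00117% of the KO-labelled ones, with none of the 10 at 0 in any eWAT library. The 8 adipocyte markers ran the other way, at 3.88% and 1.77% in KO-labelled eWAT and 0.209% and 0.330% in WT-labelled eWAT. In bulk tissue, fewer cells of a type and less RNA per cell cannot be told apart.

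The 7 Ugt1a members lie on the plus strand of chromosome 1 of GRCm38.p6 between 88055411 and 88220002, with alternative first exons. The longest GENCODE transcripts of Ugt1a6b and Ugt1a7c, however, begin with the same exon, from 88103252 to 88103378. All 7 members share their last 4 exons. These common exons start at 88215044 and make up 1311 of the 2224 bases of the Ugt1a1 transcript, 1311 of the 2297 bases of Ugt1a6a and 1317 of the 2303 bases of Ugt1a6b, so reads from them fall on all 7 genes and the deposited counts depend on how these reads were divided. RefSeq promoter windows, from 250 bases before to 50 bases after a start, were at hand for 37 of the 41 members. The 150 bases upstream of 4 Ugt1a starts and of the starts of Gstp1 and Gstp2 are printed here because the results in liver turn on these genes, which were picked with their values known. Capitals mark the HNF1 half-site GTTAAT or its reverse complement ATTAAC, the only searched motif that occurs in these stretches.
Ugt1a1: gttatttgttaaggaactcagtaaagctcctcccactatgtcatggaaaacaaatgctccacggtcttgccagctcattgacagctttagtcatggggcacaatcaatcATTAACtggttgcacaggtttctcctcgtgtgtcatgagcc
Ugt1a6a: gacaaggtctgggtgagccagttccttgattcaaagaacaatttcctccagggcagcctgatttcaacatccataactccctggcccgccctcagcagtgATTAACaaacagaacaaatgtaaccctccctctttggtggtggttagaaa
Ugt1a9: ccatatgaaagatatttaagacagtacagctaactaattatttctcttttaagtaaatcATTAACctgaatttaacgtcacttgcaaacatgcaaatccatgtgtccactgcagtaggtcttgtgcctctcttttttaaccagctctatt
Ugt1a5: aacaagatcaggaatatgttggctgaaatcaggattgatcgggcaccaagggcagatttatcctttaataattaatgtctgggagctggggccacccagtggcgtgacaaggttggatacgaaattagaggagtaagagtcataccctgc
Gstp1: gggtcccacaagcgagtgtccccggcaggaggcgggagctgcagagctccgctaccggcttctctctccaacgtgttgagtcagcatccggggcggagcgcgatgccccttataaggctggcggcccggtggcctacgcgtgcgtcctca
Gstp2: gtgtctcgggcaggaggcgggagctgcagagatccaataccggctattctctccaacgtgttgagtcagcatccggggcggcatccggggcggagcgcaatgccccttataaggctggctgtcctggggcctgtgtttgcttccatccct
The stretches are those of Ugt1a1 at chr1:88211809-88211958, Ugt1a6a at chr1:88134659-88134808, Ugt1a9 at chr1:88070629-88070778 and Ugt1a5 at chr1:88165862-88166011, all on the plus strand, and of Gstp1 at chr19:4037913-4038062 and Gstp2 at chr19:4042222-4042371 on the minus strand, in RefSeq sequence of GRCm38.p6. Searched on both strands, the half-site occurred in 7 of the 45 member windows (15.6%) and in 7.1% of 32851 windows of all genes. The 7 member genes with it were Gsta3, Ugt1a1, Ugt1a10, Ugt1a6a, Ugt1a9, Ugt2a3 and Ugt3a1. The core of the antioxidant response element, TGACNNNGC, was found in the windows of Gsta3, Gstm5 and Gstm7, that is 6.67% of the member windows against 12.4% of all windows, and the cAMP response element TGACGTCA in 0 of the 45 windows, against 1.79% of all windows. Only exact matches within these windows were counted, so variant or more distant sites would be missed. The 250 bases before the starts of Gstp1 and Gstp2 were identical at 78.1% of aligned positions, against 46.5% for Gstp2 and Gstp3, and 62.3% of the words of 50 bases in the Gstp1 transcript also occur in that of Gstp2, so part of the reads of this pair cannot be assigned by sequence.

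In liver, the Gst genes summed to 6003 to 9205 FPKM per library and the Ugt genes to 633.7 to 924 FPKM. Gstp1, the pi class enzyme, and Gstm1, a mu class enzyme, were far above the other members of both families: Gstm1 stood at 2653 and 2158 FPKM in KO-labelled liver and at 2761 and 1926 FPKM in WT-labelled liver, and Gstp1 at 1305 and 1569 FPKM against 4356 and 3954 FPKM. The next levels were those of Gstz1, which isomerises maleylacetoacetate in tyrosine breakdown, with a liver mean of 423 FPKM, Gsta3 with 352 FPKM, Gstt1 with 324.5 FPKM, Gstk1 with 299 FPKM and Gsto1, which also acts as a thiol transferase, with 249.8 FPKM. Among the Ugt genes, Ugt2b5 led with a liver mean of 143 FPKM, followed by Ugt1a6b, which conjugates phenols, with 119.6 FPKM, and Ugt2b36 with 105 FPKM. Within its class Ugt2a3 was the only Ugt2a gene with counts, at 23.7 to 36.5 FPKM in the 4 liver libraries, since Ugt2a1 and Ugt2a2 had 0 counts in all 8 libraries. Ugt3a2 stood at 78.9 to 124 FPKM. Ugt1a7c and Gstt4 had 0 counts in each of the 4 liver libraries, where the limit that a count of 0 allows was 0.152 to 0.181 CPM per library, for counting error only. For Ugt1a7c a count of 0 also depends on how shared reads were divided, since 69.3% of its words of 50 bases occur in transcripts of other genes.

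**Figure D1:**
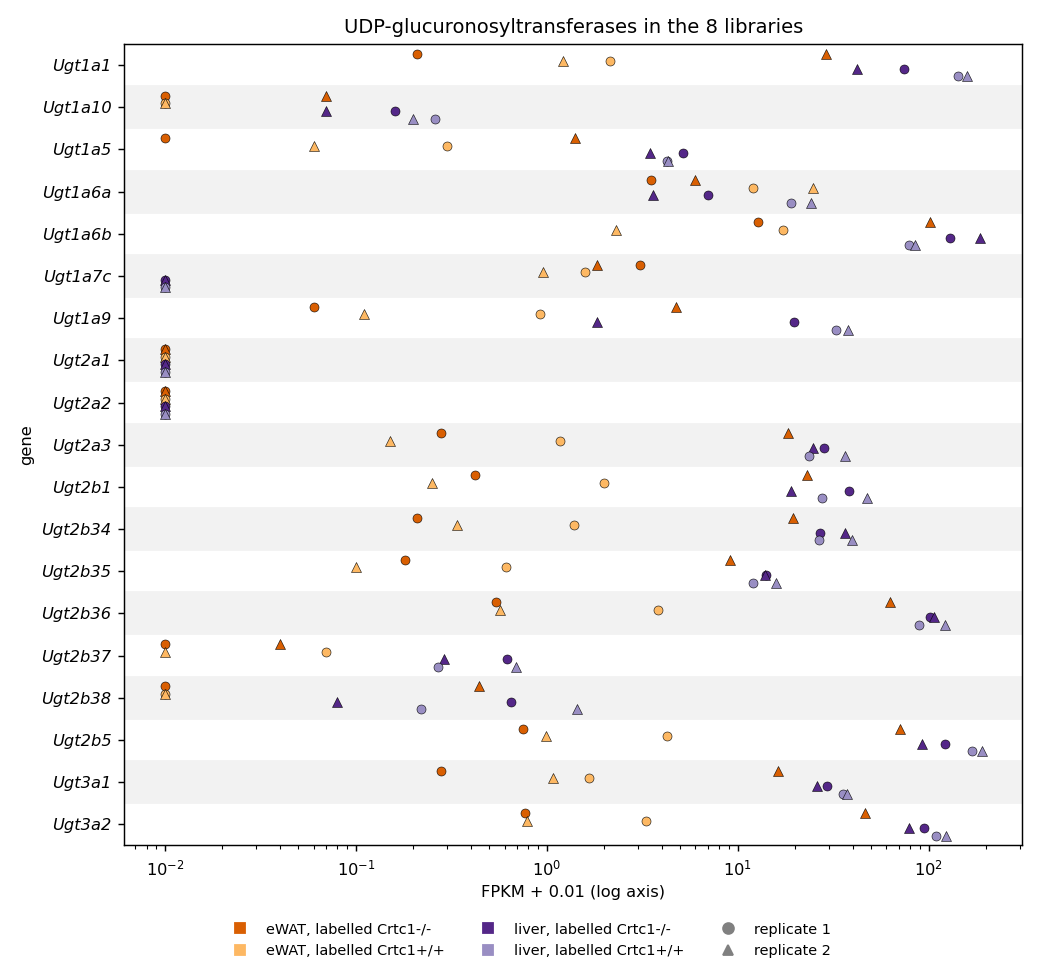
FPKM of the 19 Ugt genes (log axis, with 0.01 added) in each of the 8 libraries, coloured by tissue and labelled genotype, with circles for replicate 1 and triangles for replicate 2. The dark orange triangle, the KO-labelled eWAT replicate 2, lies near the liver points for most genes, for example at 71.1 FPKM for Ugt2b5, while the other eWAT points lie between 0.74 and 4.25 FPKM for that gene.

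In eWAT the leading members were again Gst genes, Gstm1, Gstp1 and the mu class genes Gstm2, Gstm5 and Gstm7. Gstm1 was at 1251 and 1554 FPKM in KO-labelled eWAT and 1286 and 841 FPKM in WT-labelled eWAT. Gstp1 was at 526 and 2086 FPKM against 755 and 555 FPKM. Gstm2 was at 534 and 204 FPKM against 1625 and 1309 FPKM, with no overlap, Gstm7 at 111 and 28.5 FPKM against 1316 and 1131 FPKM, and Gstm5 at 332 and 35.4 FPKM against 438 and 273 FPKM. In all, 19 to 21 of the 22 Gst genes reached 1 FPKM in each eWAT library. Of the 19 Ugt genes, 3, 11 and 4 reached 1 FPKM in KO-labelled replicate 1, WT-labelled replicate 1 and WT-labelled replicate 2 of eWAT, and 14 did so in KO-labelled replicate 2. The Ugt genes summed to 22.9, 52.3 and 33.6 FPKM in the first 3 of these libraries and to 411 FPKM in the last. Ugt1a6b was the leading Ugt gene in 3 of the 4 eWAT libraries and Ugt1a6a in WT-labelled replicate 2, where it reached 24.8 FPKM. Ugt1a7c, which had 0 counts in every liver library, was at 3.06 and 1.83 FPKM in KO-labelled eWAT and 1.57 and 0.94 FPKM in WT-labelled eWAT.

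**Figure D2:**
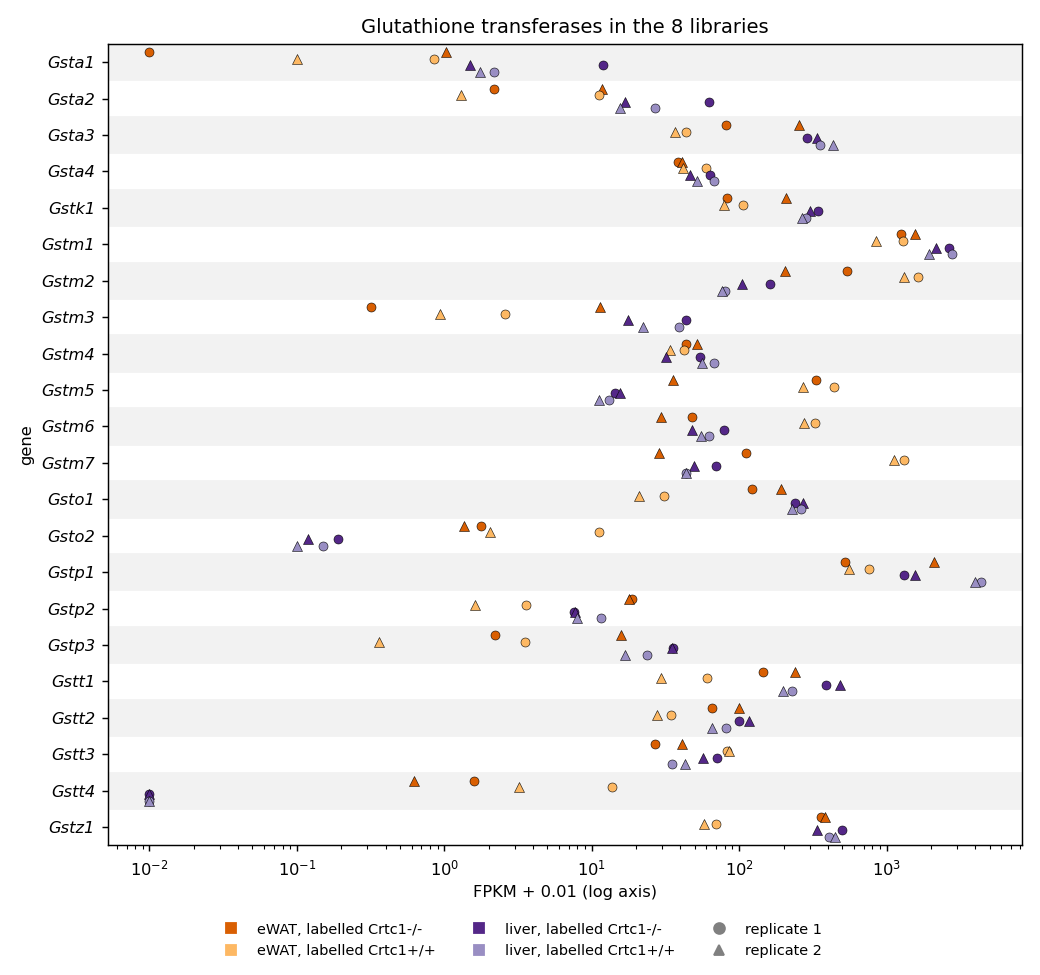
FPKM of the 22 Gst genes (log axis, with 0.01 added) in each of the 8 libraries, coloured by tissue and labelled genotype, with circles for replicate 1 and triangles for replicate 2. Gstm7 and Gstm6 show both WT-labelled eWAT libraries to the right of all other libraries, and Gsto1 and Gstz1 show both to the left of all others.

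Tissues were compared within each labelled genotype by edgeR's quasi-likelihood test in 1 fit of the 8 libraries. In the WT-labelled libraries, 36 of 39 members tested differed at an adjusted p under 0.05, against 54.9% of all genes tested, 29 lower and 7 higher in eWAT than in liver. The 17 Ugt genes tested were all among them, with Ugt1a7c alone higher in eWAT, and the 6 Gst genes higher in eWAT were Gstm2, Gstm5, Gstm6, Gstm7, Gsto2 and Gstt4. The same WT-labelled eWAT libraries held the epididymis markers, whose part in these levels was not tested. In the KO-labelled libraries, 10 of 39 members differed, 9 of them lower in eWAT, against 27.8% of all genes tested. Without KO-labelled eWAT replicate 2, the library with the hepatocyte markers, 31 members differed in that comparison, 29 of them lower in eWAT, against 36.2% of all genes tested. Fold changes between tissues depend on the scaling, since library-size scaling moved the median of all genes in the WT-labelled libraries from 0.61 to 2.003 on the log2 scale. In the KO-labelled libraries that scaling called 5 members, 4 of them higher in eWAT, against 45.7% of all genes tested.

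Between labelled genotypes in eWAT, the question was which conjugating enzymes differ with the labelled genotype in fat. The Gst genes moved in both directions: Gsto1, Gstp2, Gstt1 and Gstz1 were higher and Gstm6 and Gstm7 lower in KO-labelled eWAT, all at an adjusted p under 0.05 by edgeR's quasi-likelihood test within the tissue. No Ugt gene passed, although most had large estimates. Of the 36 members tested 6 passed (16.7%), against 12.2% of all genes tested, that is 6 of 22 Gst genes and 0 of 14 Ugt genes. DESeq2 called 14 members, 4 of them Ugt genes, against 30.0% of all genes tested. The study itself counted genes with a log2 fold change beyond 1 in either direction and an unadjusted p under 0.01, and by that threshold 5 members were higher and 2 lower, against 15.9% of all genes tested, the added one being Gstt2. The groups did not overlap for 9 higher and 7 lower members, against 66.6% of all genes tested. The calls depended on single libraries: 23 members passed without KO-labelled replicate 1, against 19.0% of all genes, 4 without KO-labelled replicate 2, against 12.3%, and 0 members and 0 of all genes without either WT-labelled library.

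Gstz1 stood at 521 and 671 CPM in KO-labelled eWAT and at 89.1 and 78.0 CPM in WT-labelled eWAT. Its log2 fold change was 2.83 ± 0.35 (SE, n = 2 per group), with an edgeR adjusted p of 0.0195. Gsto1 stood at 128 and 247 CPM against 28.0 and 19.6 CPM, a log2 fold change of 2.98 ± 0.46 with an edgeR adjusted p of 0.0266. In both genes each KO-labelled library was several times above each WT-labelled library, and the levels of Gstz1 in KO-labelled eWAT, 357 and 379 FPKM, lay within the range of the liver libraries, 338 to 499 FPKM. Gstp2 stood at 11.7 and 13.5 CPM against 1.88 and 0.882 CPM (log2 fold change 3.18 ± 0.60, edgeR adjusted p = 0.0367), and its reads are partly shared with the far more abundant Gstp1. Gstt1, a theta class enzyme that acts on small halogenated molecules, stood at 133 and 265 CPM against 47.4 and 23.8 CPM (log2 fold change 2.48 ± 0.54, edgeR adjusted p = 0.0498), and Gstt2 at 81.9 and 152 CPM against 37.1 and 30.8 CPM, just outside the call at an edgeR adjusted p of 0.0516. Most of these differences were also present without the library that held hepatocyte markers. In KO-labelled replicate 1 alone, where those markers took 0.0997% of counts, Gstz1 was 6.24 times, Gsto1 5.37 times, Gstp2 8.44 times and Gstt1 3.72 times the mean of the WT-labelled libraries. Without replicate 2, Gstz1 and Gsto1 passed with log2 fold changes of 2.61 and 2.40, while Gstp2 and Gstt1 had 3.06 and 1.89 with edgeR adjusted p of 0.0669 and 0.0514. Gstt1 passed in 6 of 13 alternative settings, Gstp2 in 9, and Gstz1 and Gsto1 in 10 each. Adipocyte markers rose in the same libraries, 6 of the 8 listed passing as higher, and their part in these results was not tested.

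The mu class held the members that fell. Gstm7 stood at 130.5 and 40.5 CPM in KO-labelled eWAT and at 1341 and 1186.5 CPM in WT-labelled eWAT, with a log2 fold change of −3.89 ± 0.70 and an edgeR adjusted p of 0.0345. Gstm6 stood at 49.0 and 36.7 CPM against 291 and 250.5 CPM, with a log2 fold change of −2.66 ± 0.32 and an edgeR adjusted p of 0.0193. The groups were far apart in both genes, and without KO-labelled replicate 2 both still passed, with log2 fold changes of −3.30 and −2.49. Gstm2 had lower values too, 490.1 and 228 CPM against 1289.5 and 1068.5 CPM, without passing (edgeR adjusted p = 0.0925). Gsto2, Gstt3 and Gstt4 and the Ugt gene Ugt1a6a also had both KO-labelled libraries below both WT-labelled ones, without passing. The mu class was not uniform, since Gstm1, a neighbour of Gstm6 and Gstm7 in the cluster on chromosome 3 between 107895854 and 108045179, was at 1460.0 and 2206 CPM against 1300 and 875 CPM (log2 fold change 0.75 ± 0.48, edgeR adjusted p = 0.311), and Gstm4 had both KO-labelled libraries above both WT-labelled ones. The epididymis markers fell with Gstm6 and Gstm7, 9 of the 10 passing as lower, and their part in the fall of these genes was not tested.

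**Figure D3:**
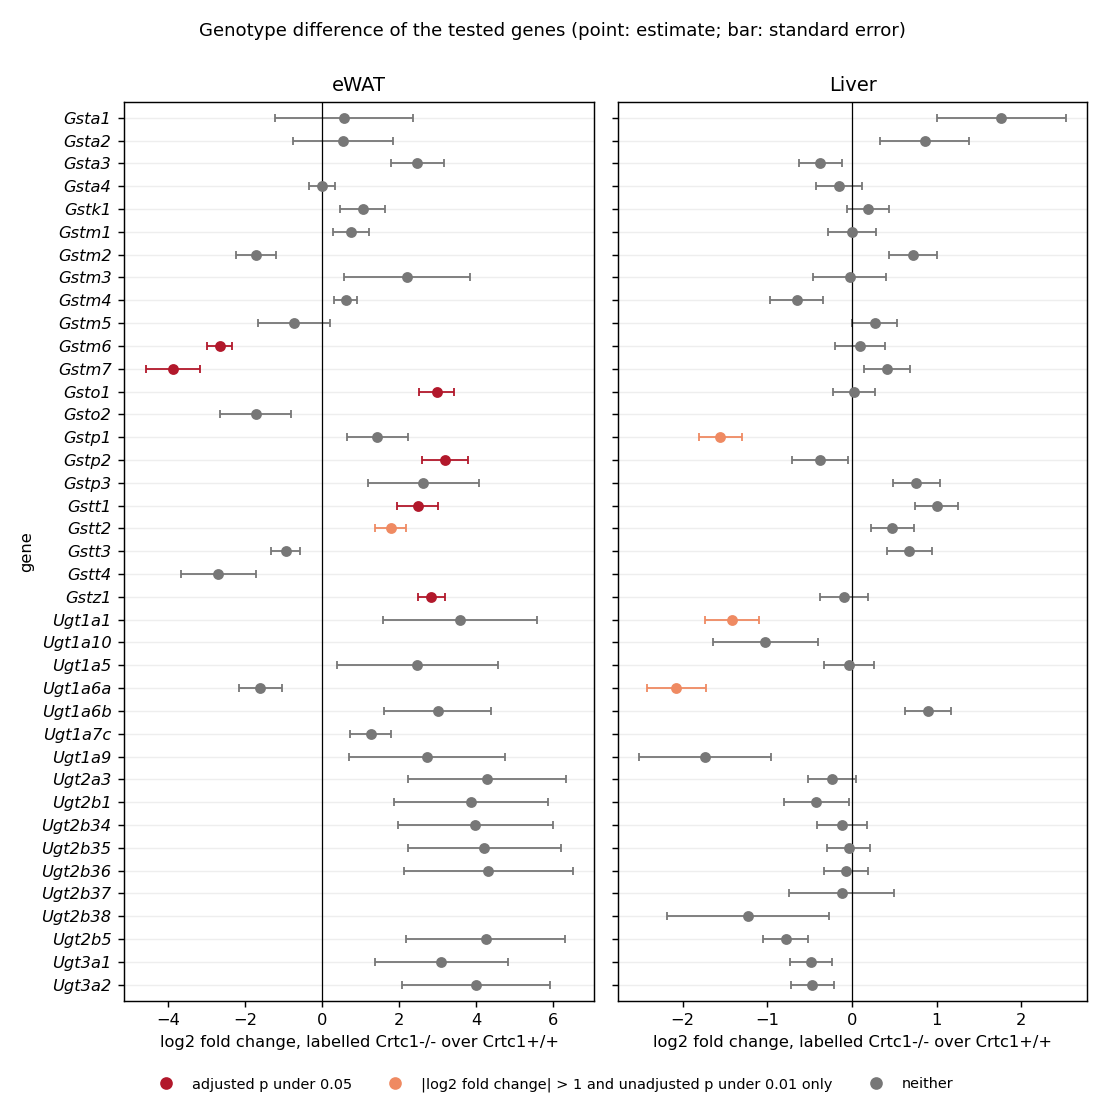
Log2 fold change, KO-labelled over WT-labelled, of each tested member in eWAT (left) and liver (right), as the edgeR estimate with its standard error, from 2 libraries per group. The 6 dark red points in eWAT passed an adjusted p of 0.05, the Ugt genes in eWAT have wide bars, and in liver Gstp1, Ugt1a1 and Ugt1a6a met the study's threshold without passing the adjusted p.

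The Ugt genes in eWAT followed 1 library. Ugt2b5 stood at 1.32 and 153 CPM in KO-labelled eWAT and at 6.55 and 1.56 CPM in WT-labelled eWAT. Ugt3a2 stood at 1.59 and 117 CPM against 5.97 and 1.45 CPM, Ugt1a1, the bilirubin-conjugating enzyme, at 0.605 and 109 CPM against 5.78 and 3.37 CPM, and Ugt2a3 at 0.55 and 44.2 CPM against 2.02 and 0.259 CPM. In each of them replicate 2 of the KO-labelled libraries was high and the other 3 libraries were low, so that the groups overlapped. In 12 of the 14 tested Ugt genes that library was the highest of the 4, the exceptions being Ugt1a6a and Ugt1a7c, and in 12 KO-labelled replicate 1 was below the mean of the WT-labelled libraries. The median log2 fold change of the tested Ugt genes was 3.72, with 13 of 14 positive, against −0.05 for all genes tested. Without KO-labelled replicate 2 it was −1.72, and the estimates reversed for Ugt1a1 (−2.92), Ugt2a3 (−1.03), Ugt2b5 (−1.61) and Ugt3a2 (−1.21), none passing. The Gst median went from 0.68 to −0.00014.

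The size of this signal was close to that of the hepatocyte markers in the same library, of which 0 of 9 passed in eWAT. The part of hepatocyte RNA in the Ugt levels was not tested. Among the 13 Ugt genes with a liver mean of at least 1 FPKM, the median level in KO-labelled replicate 2 was 50.4% of the liver mean, with a range of 20.6% to 85.1%, and the 9 hepatocyte markers had a median of 49.97%, from 41.9% to 58.7%. In KO-labelled replicate 1 these medians were 0.749% and 0.666%, in WT-labelled replicate 1 they were 4.23% and 3.35%, and in WT-labelled replicate 2 they were 0.769% and 0.341%. Single Ugt genes spread around these medians: in KO-labelled replicate 2, 4 of the 13 lay within the range of the markers, 6 above it (Ugt1a6b and 5 Ugt2 genes) and 3 below it, and above the range were 2 in KO-labelled replicate 1, 5 in WT-labelled replicate 1 and 8 in WT-labelled replicate 2. Ugt1a6a and Ugt1a6b were above it in both WT-labelled libraries and were the 2 above it in KO-labelled replicate 1, at 26.2% and 10.7% of the liver mean against 0.447% to 1.41% for the markers, and Ugt1a6a was at 89.1% and 185% in the WT-labelled libraries. The liver mean pools both labelled genotypes, so these percentages would shift for genes that differed between them in liver. Mean liver levels in KO-labelled and WT-labelled libraries were 58.1 and 151 FPKM for Ugt1a1, 10.8 and 35.1 FPKM for Ugt1a9, and 5.28 and 21.6 FPKM for Ugt1a6a. Of the 20 Gst genes with a liver mean of at least 1 FPKM, 18 in KO-labelled replicate 1, 14 in KO-labelled replicate 2 and 20 in each WT-labelled library were above the range of the markers.

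**Figure D4:**
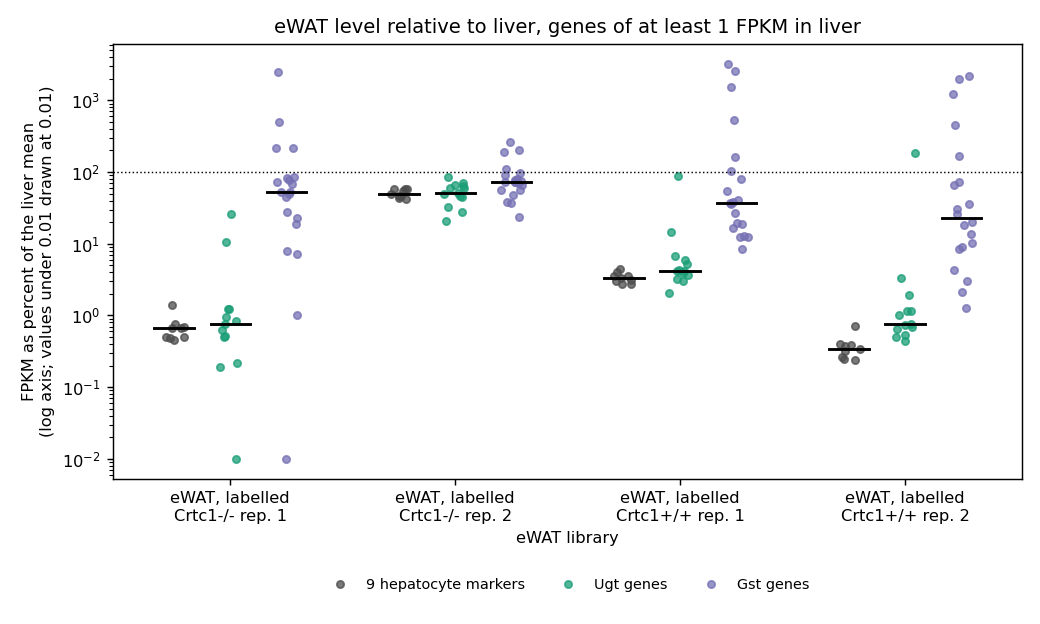
FPKM in each eWAT library as a percentage of the mean of the 4 liver libraries (log axis, values under 0.01% drawn at 0.01%) for 9 hepatocyte markers, 13 Ugt genes and 20 Gst genes with a liver mean of at least 1 FPKM, with black bars for medians. Ugt genes and hepatocyte markers have medians of the same order in each library, 50.4% and 49.97% in KO-labelled replicate 2, while the Gst medians run from 23.1% to 72.8%.

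In eWAT, Gstp1 and Gstk1 shared this pattern in part. Gstp1 was at 320.3 and 1561 CPM in KO-labelled eWAT against 397 and 299.6 CPM, with a log2 fold change of 1.43 that became −0.14 without replicate 2. Gstk1 was at 65.7 and 204 CPM against 73.6 and 55.8 CPM, with a log2 fold change of 1.06 that became −0.00014. Gsta3, an alpha class enzyme, was at 102 and 390 CPM against 47.4 and 41.1 CPM, so that both KO-labelled libraries were above both WT-labelled ones, but its log2 fold change of 2.48 did not pass (edgeR adjusted p = 0.0795) and was 1.18 without replicate 2. Ugt1a6a had the opposite sign, 11.3 and 23.1 CPM against 33.3 and 71.3 CPM (log2 fold change −1.61 ± 0.56, edgeR adjusted p = 0.124), and Ugt1a6b was at 27.9 and 269 CPM against 32.7 and 4.46 CPM (log2 fold change 2.999 ± 1.40, edgeR adjusted p = 0.204).

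In liver, the members with the clearest differences were lower in the KO-labelled libraries. They were Gstp1, Ugt1a1 and Ugt1a6a, each with no overlap between the groups, and each met the study's threshold (3 lower and 0 higher of 36 members tested, against 4.27% of all genes tested). None of the 36 members passed an adjusted p of 0.05 in edgeR, against 0.0854% of all genes tested. DESeq2 called 5 members, namely Gstp1, Ugt1a1 and Ugt1a6a and, as higher, Gstt1 and Ugt1a6b, against 2.66% of all genes tested. The groups did not overlap for 9 higher and 11 lower members, against 52.1% of all genes tested. With 2 libraries against 2, an exact permutation test of a single gene cannot give a two-sided p below 0.333. Without KO-labelled replicate 1 of liver 10 members passed, 2 higher and 8 lower, against 12.5% of all genes, without KO-labelled replicate 2 it was 4, against 1.46%, and without either WT-labelled library 0.

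Gstp1 stood at 776 and 931 CPM in KO-labelled liver and at 2626 and 2396 CPM in WT-labelled liver, so that the mean was 66.0% lower. The log2 fold change was −1.56 ± 0.26 (SE, n = 2 per group), with an edgeR adjusted p of 0.0668. Together with Gstp2, which shares part of its reads and stood at only 4.61 to 7.09 CPM, the sum was 781 and 936 CPM against 2633 and 2401 CPM, a ratio of the means of 0.341 that is close to the 0.340 of Gstp1 alone. Gstp3, the third gene of the class, was at 21.1 and 21.3 CPM against 14.6 and 10.4 CPM. In mouse liver the pi class enzyme is known to be more abundant in males than in females. Of the genes known to be higher in female liver, 10 of 10 listed had a positive estimate in the KO-labelled libraries and 3 passed in edgeR, Cyp2b13, Cyp3a41a and Sult2a2, with log2 fold changes of 5.30, 6.36 and 7.82. Genes known to be higher in male liver had negative estimates for 10 of 10, and Mup7 and Elovl3 passed as lower, with log2 fold changes of −5.80 and −4.21. The share of counts in the female list was 0.0569% and 0.155% in KO-labelled liver against 0.0290% and 0.0155%, and in the male list 0.121% and 0.0722% against 0.245% and 0.330%, and the part of this in the Gst and Ugt results was not tested.

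The Ugt1a genes of the liver did not share a direction. Ugt1a1 stood at 229 and 125 CPM in KO-labelled liver and at 445 and 502 CPM in WT-labelled liver (log2 fold change −1.42 ± 0.32, edgeR adjusted p = 0.123). Ugt1a6a stood at 22.0 and 11.0 CPM against 60.8 and 78.2 CPM (log2 fold change −2.08 ± 0.35, edgeR adjusted p = 0.0680). Both had clear gaps between the groups, and in both KO-labelled replicate 2 was the lowest of the 4 libraries. Ugt1a9 was at 60.3 and 5.43 CPM against 101 and 119 CPM, so that the lower KO-labelled library set most of its difference, and Ugt1a10 was under 1 CPM in every liver library. Ugt1a6b had the opposite sign, 277 and 388 CPM against 171 and 186 CPM (log2 fold change 0.90 ± 0.27, edgeR adjusted p = 0.181), and Ugt1a5 was at 15.7 and 10.3 CPM against 13.2 and 13.5 CPM. The sum of Ugt1a6a and Ugt1a6b was 299 and 399 CPM against 232 and 264 CPM, so the lower Ugt1a6a stood beside a larger difference in CPM, of the opposite sign, at Ugt1a6b, and how shared reads were divided between them is not known. The ambiguity goes beyond the 4 common exons: in GENCODE, all 2248 words of 50 bases of Ugt1a6a and 80.7% of those of Ugt1a6b also occur in transcripts named Ugt1a7c, a gene with 0 counts in liver, so under that annotation no stretch of 50 bases belongs to Ugt1a6a alone. All 7 Ugt1a genes together summed to 604 and 540.2 CPM against 792 and 899 CPM. Outside the locus, Ugt2b5 was at 211 and 158 CPM against 297 and 338 CPM, Ugt3a1 at 59.5 and 50.5 CPM against 74.5 and 79.4 CPM, and Ugt3a2 at 193 and 158 CPM against 227 and 259 CPM, each without overlap and without passing. In all, 15 of the 16 tested Ugt genes had a negative estimate in liver, with a median of −0.45 against 0.00 for all genes tested, Ugt1a6b being the exception. This median depended on WT-labelled replicate 2, without which it was −0.0039, while it was −0.62 without WT-labelled replicate 1, −0.72 without KO-labelled replicate 1 and −0.34 without KO-labelled replicate 2.

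**Figure D5:**
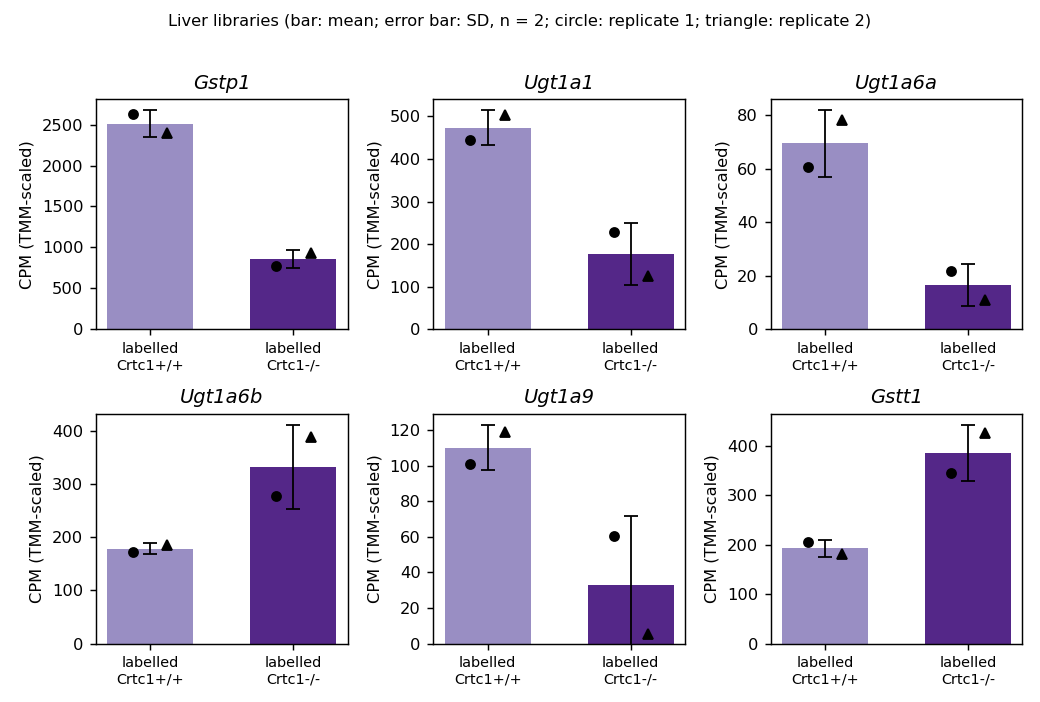
TMM-scaled CPM of 6 members in the 4 liver libraries by labelled genotype, with bars for the mean, error bars for the SD (n = 2, cut off at 0) and points for the libraries. Gstp1, Ugt1a1, Ugt1a6a and Ugt1a9 are lower in both KO-labelled libraries, for Gstp1 776 and 931 against 2626 and 2396 CPM, and Ugt1a6b and Gstt1 are higher in both.

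The Gst genes of the liver showed no common direction, with 12 of 20 tested estimates positive and a median log2 fold change of 0.14. The groups did not overlap for 12 of the 20, against 52.1% of all genes tested. In the theta class, Gstt1 was at 346 and 425 CPM in KO-labelled liver against 205 and 181 CPM (log2 fold change 0.999 ± 0.26, edgeR adjusted p = 0.148), Gstt2 at 122 and 133 CPM against 100.4 and 82.6 CPM, and Gstt3 at 122 and 95.7 CPM against 60.8 and 75.8 CPM. These 3 were among the 12, with both KO-labelled libraries higher, and none passed. Gstm2 was at 144 and 92.6 CPM against 73.4 and 70.6 CPM, again without overlap. Of the 6 members called in eWAT, Gstt1 thus had the largest estimate in liver, and the other 5 had 0.02 for Gsto1, −0.10 for Gstz1, −0.38 for Gstp2, 0.09 for Gstm6 and 0.41 for Gstm7 on the log2 scale. Gstz1, for instance, was at 710 and 459.8 CPM in KO-labelled liver and 593 and 657 CPM in WT-labelled liver. Alpha class genes varied between single libraries: Gsta1 was at 8.44 CPM in the KO-labelled liver replicate 1 and at 1.05 to 1.54 CPM in the other 3.

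Whether a genotype difference itself differed between the tissues was tested as the interaction in 1 edgeR fit of the 8 libraries. Of 39 members tested, 5 passed, against 6.94% of all genes tested, and all were Gst genes. The eWAT difference exceeded the liver difference by 2.90 on the log2 scale for Gsto1, by 3.48 for Gstp2 and by 2.86 for Gstz1, and the term was −2.84 for Gstm6 and −4.43 for Gstm7. Gstp1 had opposite signs in the tissues, 1.43 in eWAT and −1.56 in liver, but its interaction did not pass (edgeR adjusted p = 0.141). With 1 library left out the number passing, like the share of all genes, rose without either KO-labelled eWAT library and fell without any other library. Over 16 alternatives, those fits included, the term ran from 2.37 to 3.38 for Gsto1, 3.04 to 4.14 for Gstp2 and 2.55 to 3.23 for Gstz1. It ran from −3.46 to −2.41 for Gstm6 and from −5.34 to −3.72 for Gstm7.

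Genes that supply, control or complement the conjugating enzymes were taken from 7 lists, whose calls can be read against the 12.2% of all genes called in eWAT. In eWAT none of the 9 genes of UDP-glucuronic acid supply, which include the transporters Slc35b1 and Slc35d1 and Gusb, an enzyme that cleaves glucuronides, and none of the 8 conjugate exporters passed. Of 17 genes of glutathione synthesis and recycling, 4 were higher in KO-labelled eWAT (Dpep1, Oplah, Ggt5 and Chac1, with log2 fold changes of 2.59, 2.68, 2.65 and 2.51) and 1 was lower, Ggt7, named after its values were seen, at −4.68. Chac1 and the gamma-glutamyl transferases act in the breakdown of glutathione, Dpep1 cleaves its dipeptide product and Oplah recycles 5-oxoproline. The list of membrane-bound glutathione transferases had 4 of 6 higher, Mgst2, Mgst3, Alox5ap and Ltc4s, with log2 fold changes of 3.85, 2.38, 2.78 and 3.38, of which Alox5ap and Ltc4s belong to leukotriene synthesis. Of 23 genes of the NRF2 pathway 4 were higher, Hmox1 (2.75), Mafk (2.09), Aox1 (3.27) and Maff (2.11), and none passed as lower. This list had no common direction, with 14 of 23 estimates positive and a median log2 fold change of 0.29. Nqo1 (−1.19), Cbr3 (−1.78), Slc7a11 (−3.17) and Gclm (−1.06) were among those with negative estimates, without passing. Of 12 xenobiotic receptors and liver factors 3 were higher, Rxra (2.32), Nr1h3 (3.41) and Cebpa (3.10), and of 10 other phase II enzymes 2 were, Nnmt (3.68) and Ephx2 (3.29). The adipocyte markers named above rose in the same libraries, as did 5 of 5 endothelial and 2 of 5 macrophage markers, and their part in these lists was not tested. Without KO-labelled eWAT replicate 2, a setting chosen after seeing the data, the glutathione list had 4 higher and 3 lower (Ggt7, Cth and Ggt1), the membrane-bound transferases 5 higher, the NRF2 list 5 higher, the receptors 3 higher, the other phase II enzymes 2 higher and 1 lower (Tpmt), the UDP-glucuronic acid list 0 and the exporters 1 lower (Abcc3). With all eWAT libraries, the genes known to be higher in male liver held 1 call, C6, which was higher, and those known to be higher in female liver 0. The call of C6 was lost without KO-labelled replicate 2. In liver no gene of these 7 lists passed in edgeR.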

How the data were processed

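RNA was extracted from liver and eWAT and sequenced as 8 libraries, 2 for each labelled genotype and tissue. The authors deposited estimated counts per gene, not normalized, and FPKM, which scale each count to gene length and depth, for 19348 genes. HISAT, Bowtie2 and GRCm38.p6 are named in the submitters' processing notes without a role, and the counting tool, its version, the annotation and the read length are not given in the sources used here. Between 5.44% and 9.98% of values per library were not whole, so the counts of near-identical members may depend on how shared reads were divided.

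Counts were rounded, filtered by filterByExpr, scaled by TMM within each tissue and tested by edgeR's quasi-likelihood test in edgeR 4.0.16 under R 4.3.3, and p-values were adjusted by Benjamini and Hochberg across every gene of a fit. The interaction and the tissue comparisons used 1 fit of all 8 libraries. The study compared genotypes by limma, so limma 3.58.1 on quantile-normalized log2(FPKM + 1) was an alternative, beside DESeq2 1.42.0, other scalings and filters, the replicate block and each library left out. Log2 values on the FPKM scale were made from the deposited values. The SE was taken from the estimate and its F statistic (estimate over root F). At 16560085 to 19721481 counts per library, the spread between 2 animals, more than counting error, limits the tests of all but the lowest members. The members and lists were chosen with earlier results of these data known. Members named were those called in a genotype contrast or the interaction, those at the study's threshold, and the leading member of each class by FPKM in each tissue, and further members are given by their values. Promoter sequences are from RefSeq (GRCm38.p6), transcripts from GENCODE. The tests were tried on simulated data, and figures were drawn with matplotlib 3.10.9.

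Same-numbered libraries did not deviate together in every pair of groups: the correlation of replicate differences was 0.014 between genotypes in eWAT, 0.074 in liver, 0.0048 between tissues in the KO-labelled libraries and 0.27 in the WT-labelled ones, so replicate numbers were not taken as pairs.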

Additional observations from a re-analysis of the deposited data

Results flagged for a closer look

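For 5 Gst genes the genotype difference itself differed between eWAT and liver, by the interaction term of 1 edgeR fit of all 8 libraries. The term was 2.90 for Gsto1, 3.48 for Gstp2 and 2.86 for Gstz1 on the log2 scale, with edgeR adjusted p of 0.0420, 0.0243 and 0.0354, and both KO-labelled libraries were above both WT-labelled ones in eWAT for each gene. The term was −2.84 for Gstm6 and −4.43 for Gstm7, with edgeR adjusted p of 0.0183 and 0.0205, and both KO-labelled libraries were below both WT-labelled ones in eWAT. Over the alternatives the direction held in 16 of 16 for each of the 5 genes, and the adjusted p passed in 9 of 16 for Gsto1 and Gstz1, 10 of 16 for Gstm7 and 11 of 16 for Gstm6 and Gstp2.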

How the results depend on the processing

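In eWAT the 6 members called became 14 with DESeq2, against 30.0% of all genes tested. They stayed within 5 to 9 under the other scalings, filters, limma and 1 fit of 8 libraries, against 10.6% to 24.8%. The 7 at the study's threshold became 13 with DESeq2, and library-size scaling gave 4 higher and 3 lower, and upper-quartile scaling 3 and 2, in place of 5 and 2. Leaving out 1 library gave 0 to 23 called (23 without KO-labelled replicate 1, 4 without its replicate 2, 0 without either WT-labelled one) and 1 to 23 at the study's threshold (23, 8, 2 and 1), where the lone library of an arm is assumed to vary like the other arm. In liver 0 called became 5 with DESeq2, against 2.66% of all genes tested, and 3 (Gstp1, Ugt1a1 and Ugt1a6a) with no expression filter, against 1.89%. The number rose when either KO-labelled liver library was left out. The 3 at the study's threshold became 5 with no filter, 1 in 1 fit of 8 libraries and 2 to 10 with 1 library left out (10 and 5 without the KO-labelled libraries), and upper-quartile and library-size scaling each gave 1 higher, Gstt1, and 3 lower. For the interaction 5 became 8 with DESeq2 and 8 with limma at either pseudocount, and 0 to 21 with 1 library left out (21 without KO-labelled eWAT replicate 1, 0 or 1 without either WT-labelled eWAT library or any liver library). For eWAT against liver, leaving out 1 library gave 15 to 38 in place of 36 (15 to 20 without a WT-labelled library), and 2 to 31 in place of 10 in the KO-labelled ones, where DESeq2 gave 20 and library-size scaling gave 5, 4 of them higher. For the interaction, the share of all genes tested that passed went from 6.94% to 13.2% with DESeq2 and to 16.1% and 15.6% with limma. For eWAT against liver in the KO-labelled libraries that share went from 27.8% to 33.0% with DESeq2 and to 45.7% with library-size scaling. The cause of these shifts was not tested.

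With the replicate number as a block, which pairs libraries that share only a number, 0 members and 0 of all 15391 genes tested passed in eWAT. In liver 1 member passed (Ugt1a6a), against 0.700% of all genes tested, and in the interaction 4, against 5.94%. Between tissues 30 and 8 passed, against 54.7% and 28.9%. The study's threshold was met by 6 members in eWAT and 4 in liver, against 2161 of 15391 and 579 of 11707 genes tested.

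Single estimates were followed over the alternatives only for the members named by the rule above. Among these, the estimates that changed sign with 1 eWAT library left out, with their range, were those of Gstk1 (−0.00014 to 1.66), Gstp1 (−0.14 to 2.17), Ugt1a1 (−2.92 to 4.58), Ugt2a3 (−1.03 to 6.50), Ugt2b5 (−1.61 to 5.74) and Ugt3a2 (−1.21 to 5.46), each lowest without KO-labelled eWAT replicate 2. In liver, where the estimates were near 0, those with 1 library left out ran from −0.079 to 0.11 for Gsto1, which was −0.070 with limma at either pseudocount, from −0.32 to 0.40 for Gstm6 and from −0.43 to 0.17 for Gstz1. Library-size scaling moved the median of all eWAT genes from −0.05 to −0.35 on the log2 scale.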
